A study of Mus musculus with 6 samples.

Results

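Expression was measured in whole liver of 6 mice, with 1 whole-transcript array per mouse, and 34 genes of the liver endothelium were taken from the 22180 genes of the array. The 34 genes are a fixed list of cell markers, made up of 9 genes of the sinusoidal endothelium, 21 genes that vessels of many organs share and 4 adhesion molecules of activated endothelium. All 34 were measured, each by 1 probe set. The first group is 3 ErbB4-/- mice, which lack the receptor ErbB4 in all tissues but the heart. There a transgene overexpresses ErbB4 and keeps the mice alive. The second group is 3 wild-type controls. The ErbB4-/- line was backcrossed to C57BL/6J, which is also the strain of the controls. All 6 mice, controls included, were injected once, on postnatal day 14, with DEN, which in this field stands for diethylnitrosamine, a chemical that causes liver tumours. The labels call the tissue liver and say nothing of its tumour content or of the sex of the mice. For the weeks until dissection, the protocol says 32 in all mice, whereas the treatment characteristic of the single samples says 35, 36 and 37 weeks for ErbB4-/- replicates 1 to 3, against 32, 33 and 34 weeks for control replicates 1 to 3. Loss of ErbB4, the heart transgene and, if the characteristic is right, age cannot be told apart in this design.

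Endothelial cells line all vessels. Those of the liver sinusoid have open pores and no dense basement membrane, and they clear waste molecules from blood through scavenger receptors. They also send signals to hepatocytes, such as the BMP ligands that control iron uptake. When inflammatory cytokines activate endothelium, it displays adhesion molecules that capture leukocytes from the blood. Transcription factors of the ETS family, among them ERG and FLI1, bind regulatory regions of many endothelial genes.

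To show the regulatory letters behind members of each group, the 250 bases before the transcript start were taken from RefSeq (GRCm38.p6), where 19 of the 34 genes had an entry, with 21 start sites. The letters AGGAAG, an ETS-type core, were searched on both strands and occur in 13 of these 21 windows and in 29.5% of all 32851 windows of the same length. The windows of Stab1 and Stab2, which encode the stabilin scavenger receptors of the sinusoid, hold 1 match each, Clec4g holds 3 and Eng, the endoglin gene of vessels in general, holds 2. The window of Sele, which encodes E-selectin, holds 1. These 5 are printed 5′ to 3′ on the strand of the gene, with the matches in capitals. All 5 hold a match, while windows without one, such as those of Ehd3, Kdr and Icam1, are not printed. In Clec4g 2 matches share 2 bases and so read as 1 run.
Stab1 (chr14:31168642-31168891, minus strand): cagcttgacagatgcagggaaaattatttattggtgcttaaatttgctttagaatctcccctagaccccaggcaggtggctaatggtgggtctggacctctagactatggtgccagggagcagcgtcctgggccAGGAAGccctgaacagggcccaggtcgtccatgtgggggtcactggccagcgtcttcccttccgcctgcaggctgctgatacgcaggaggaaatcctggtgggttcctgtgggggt
Stab2 (chr10:87007943-87008192, minus strand): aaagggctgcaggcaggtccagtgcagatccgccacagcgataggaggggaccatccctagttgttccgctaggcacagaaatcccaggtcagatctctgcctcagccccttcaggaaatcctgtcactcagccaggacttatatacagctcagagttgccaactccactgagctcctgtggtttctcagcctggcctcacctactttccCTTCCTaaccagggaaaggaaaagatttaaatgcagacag
Clec4g (chr8:3720652-3720901, minus strand): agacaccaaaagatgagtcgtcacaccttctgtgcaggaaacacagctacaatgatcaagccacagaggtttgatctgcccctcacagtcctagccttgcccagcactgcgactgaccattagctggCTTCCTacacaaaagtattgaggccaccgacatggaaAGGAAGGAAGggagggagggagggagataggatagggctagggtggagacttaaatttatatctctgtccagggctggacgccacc
Eng (chr2:32646345-32646594, plus strand): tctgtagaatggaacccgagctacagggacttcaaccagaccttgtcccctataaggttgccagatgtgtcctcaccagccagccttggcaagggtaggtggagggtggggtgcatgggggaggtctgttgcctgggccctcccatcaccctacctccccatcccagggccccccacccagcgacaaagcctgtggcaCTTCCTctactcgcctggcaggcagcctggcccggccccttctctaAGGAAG
Sele (chr1:164047984-164048233, plus strand): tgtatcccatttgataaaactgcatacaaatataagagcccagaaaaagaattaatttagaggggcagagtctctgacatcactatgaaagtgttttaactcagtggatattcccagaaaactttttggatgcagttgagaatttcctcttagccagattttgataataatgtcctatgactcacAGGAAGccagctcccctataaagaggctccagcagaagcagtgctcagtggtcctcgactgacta
For NF-kappaB only a single fixed pattern of 10 letters was searched, which occurs in 0 of the 21 windows and in 1.41% of all windows. Other forms of NF-kappaB sites were not searched, so this count does not show that the windows, such as those of Icam1 and Sele, lack them. The letters AGATAA, searched on both strands as 1 form of a site for GATA factors, occur in 0 of the 21 and in 9.99% of all. Other forms of GATA sites were not searched either, so this count does not show that the windows lack them. A match or its absence in these windows says nothing about binding of a factor.

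Some features of the arrays touch every value below. Values are log2 intensities as the authors deposited them, on arrays whose medians were alike, so a difference of 1 is a 2-fold difference, and a level can be compared between arrays but not between genes. Differences are ErbB4-/- minus control with the standard error of limma, and errors of means are SD over n = 3 arrays. Of the 34 genes, 32 had a mean at or above the median of all genes, and Sele and Selp lay under it, where signal can be background. In 57.5% of all genes and in 11 of the 34, at least 2 arrays held exactly the same value, so that some SDs are 0. ErbB4-/- replicate 3 had the lowest immediate early genes, with a mean over 9 genes of 6.79, against 9.22 and 8.90 in ErbB4-/- replicates 1 and 2 and 9.39 to 10.47 in controls. Control replicate 1 differed from the other 5 arrays in sex-biased genes such as Hsd3b5, a male-type steroid enzyme, at 2.52 against 8.70 to 9.88. The targeted gene Erbb4 measured 4.75, 5.36 and 5.61 in ErbB4-/- replicates, against 5.42, 5.73 and 5.42 in controls, which overlap, and the part of the gene that its probe set reads was not examined.

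Endothelial genes had lower values in ErbB4-/- liver, and no single one passed the test. Of the 34 genes, 30 had a difference below 0, which is 88.2%, compared with 44.9% of all genes. The median difference was -0.54, beside 0.01 over all genes. None of the 34 passed at an adjusted p under 0.05 (limma, adjusted p between 0.760 and 0.958), where 0.00451% of all genes, which is 1 gene outside the list, passed. At an unadjusted p under 0.05 there were 9 lower and 0 higher genes, which is 26.5% and 0%, beside 2.94% and 2.77% of all genes. The number under this p in either direction depended on single arrays. It was 23 without ErbB4-/- replicate 1 and 4 without ErbB4-/- replicate 2, none of them higher. Without ErbB4-/- replicate 3 it was 5, of which 4 were lower and 1, Sele, was higher. Leaving out control replicates 1, 2 and 3 in turn gave 5, 4 and 3, all lower. The share of all genes under this p was not computed in these smaller fits, so their counts have no background beside them. In bulk tissue, fewer endothelial cells and less RNA per cell cannot be told apart.

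The 3 ErbB4-/- livers differed from each other in these genes, with an SD of the mean over all 34 of 0.42 in ErbB4-/- liver and 0.16 in control liver. ErbB4-/- replicate 3 had the lowest value of all 6 arrays in 31 of the 34 genes, which is 91.2%, where this array was lowest in 20.0% of all genes. It lay below all controls in the same number of the 34, ErbB4-/- replicate 2 did so in 25 genes (73.5%) and ErbB4-/- replicate 1 in 6 genes (17.6%). Over all genes the shares below all controls were 25.3% for replicate 3, 21.3% for replicate 2 and 21.1% for replicate 1. ErbB4-/- replicate 1 was thus near the share of all genes, and the other two ErbB4-/- arrays were above it. Control replicate 3 was the highest of all arrays in 17 of the 34, which is 50.0%, where it was highest in 12.6% of all genes.

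**Figure D1:**
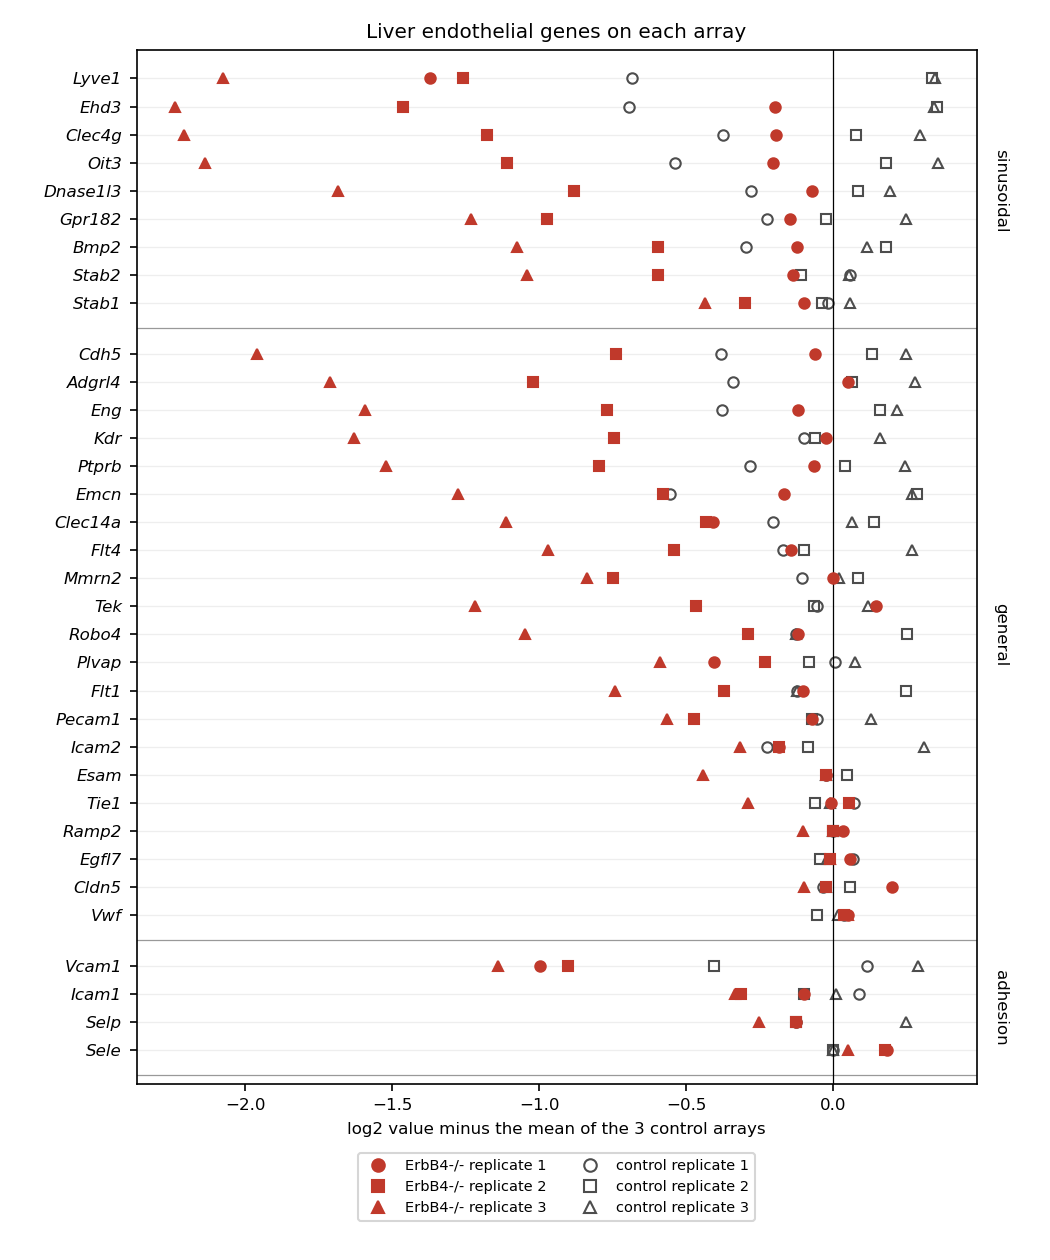
Each row is a gene and each point 1 array, given as its log2 value minus the mean of the 3 control arrays, with filled red symbols for ErbB4-/- and open symbols for control. ErbB4-/- replicate 3 (triangles) is the lowest array in 31 of 34 rows, while ErbB4-/- replicate 1 (circles) mostly lies among the controls.

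Sinusoidal genes had the largest median difference of the 3 groups, at -0.88, with 9 of 9 below 0. Their mean per array was 8.21, 7.56 and 6.92 in ErbB4-/- replicates 1 to 3, against 8.15, 8.61 and 8.71 in control replicates 1 to 3. The groups overlapped, because ErbB4-/- replicate 1 lay above control replicate 1. With the weeks of the treatment characteristic as a covariate, the median difference was -0.19 for the sinusoidal genes and 0.033 for the general ones. Weeks and genotype do not overlap, however, so they cannot be told apart. That fit also assumes 1 slope for both groups, whereas the sinusoidal means rose with the weeks in controls and fell in ErbB4-/- liver. Without ErbB4-/- replicate 3 the median difference was -0.56, and for ErbB4-/- replicate 1 alone against the controls it was -0.15.

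Lyve1, a hyaluronan receptor of sinusoidal and lymphatic endothelium, differed most. It measured 6.52, 6.63 and 5.82 in ErbB4-/- replicates 1 to 3, against 7.21, 8.23 and 8.24 in control replicates 1 to 3. All ErbB4-/- arrays lay below all controls, here including replicate 1. The difference was -1.57 with a standard error of 0.36, which is 2.96-fold lower and did not pass (limma, adjusted p = 0.760). Leaving out any 1 array left it between -1.91 and -1.31, each time at an unadjusted p under 0.05.

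The stabilins, large scavenger receptors that take up hyaluronan, modified lipoproteins and other waste, were lower by less and also without overlap. Stab2 measured 8.90, 8.44 and 7.99 in ErbB4-/- replicates 1 to 3, against 9.10, 8.93 and 9.09 in controls. Stab1 measured 7.40, 7.20 and 7.07 in ErbB4-/- replicates, against 7.49, 7.46 and 7.56 in controls. In both genes ErbB4-/- replicate 1 lay just under the lowest control, and without ErbB4-/- replicate 3 the difference of Stab2 was -0.37. The differences were -0.59 ± 0.23 (SE) for Stab2 and -0.28 ± 0.10 (SE) for Stab1, and neither passed (limma, adjusted p = 0.760). Groups without overlap and ErbB4-/- lower were seen in 3 of the 9 sinusoidal genes and in 6 of all 34, which is 17.6%, beside 3.81% of all genes.

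The other 6 sinusoidal genes shared 1 pattern, in which ErbB4-/- replicate 1 lay within the range of the controls and replicates 2 and 3 below it. Ehd3, which encodes an endocytic recycling protein, measured 10.16, 8.89 and 8.12 in ErbB4-/- replicates 1 to 3, against 9.66, 10.71 and 10.70 in controls. Clec4g, the lectin LSECtin, measured 9.84, 8.86 and 7.83 in ErbB4-/- replicates, against 9.66, 10.11 and 10.33 in controls. Oit3, a secreted zona pellucida domain protein, measured 8.11, 7.21 and 6.18 in ErbB4-/- replicates, against 7.78, 8.49 and 8.67 in controls. The lowest of these 3 genes' ErbB4-/- values lay more than 1 log2 unit under every control, and the highest above control replicate 1. Dnase1l3, which encodes a secreted nuclease that digests DNA in blood, measured 8.58, 7.77 and 6.97 in ErbB4-/- replicates, against 8.38, 8.74 and 8.85 in controls. Gpr182, an endothelial receptor that scavenges chemokines, measured 7.39, 6.56 and 6.31 in ErbB4-/- replicates, against 7.32, 7.51 and 7.79 in controls. Bmp2, a ligand that induces the iron hormone hepcidin in hepatocytes, measured 6.96, 6.48 and 6.00 in ErbB4-/- replicates, against 6.78, 7.26 and 7.19 in controls. Differences of these 6 genes ran from -1.30 for Ehd3 to -0.60 for Bmp2 and did not pass (limma, adjusted p = 0.760). Without ErbB4-/- replicate 3 they were smaller, from -0.83 for Ehd3 to -0.36 for Bmp2.

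**Figure D2:**
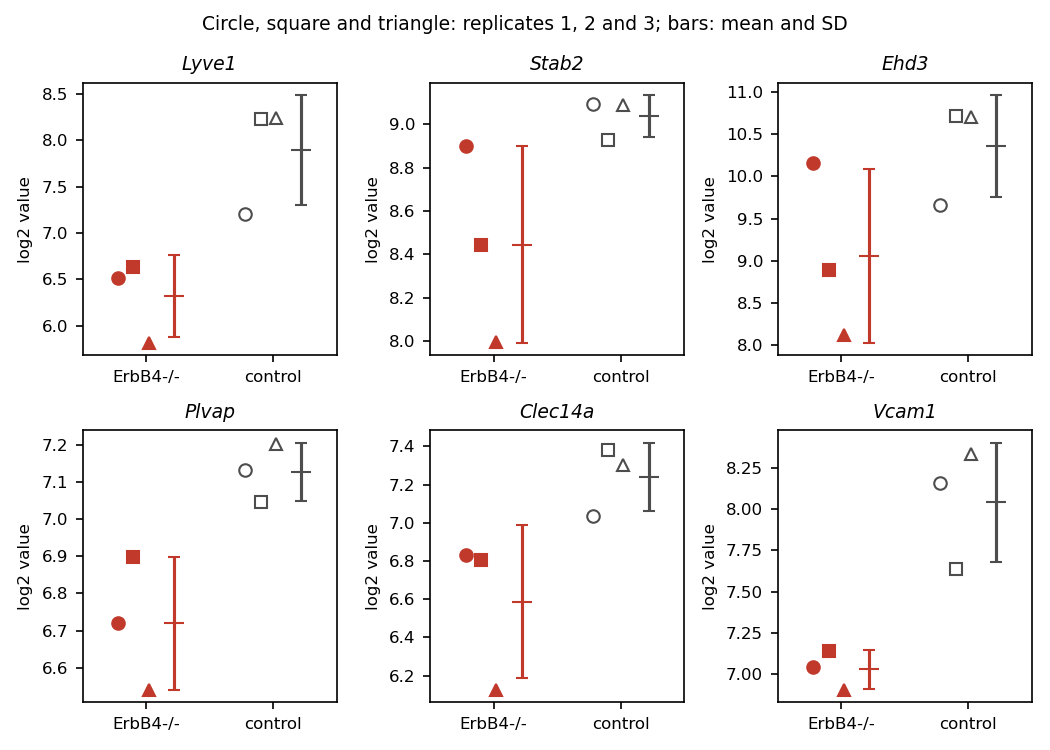
Log2 values of 6 genes on each array, with ErbB4-/- left of control, symbols for replicates 1, 2 and 3, and bars for the mean and SD of 3 arrays. In Lyve1, Stab2, Plvap, Clec14a and Vcam1 all ErbB4-/- arrays lie below the controls, with replicate 1 of Stab2 close to them at 8.90. In Ehd3 replicate 1 lies among the controls at 10.16.

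General endothelial genes were lower too, by a median of -0.49, with 18 of 21 below 0. Their mean per array was 7.06, 6.73 and 6.27 in ErbB4-/- replicates 1 to 3, against 6.98, 7.17 and 7.22 in control replicates 1 to 3. As with the sinusoidal genes, ErbB4-/- replicate 1 lay above control replicate 1 and replicates 2 and 3 below all controls. Without ErbB4-/- replicate 3 the median was -0.27.

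Plvap and Clec14a were the 2 general genes whose groups did not overlap, which is 9.52%, beside 3.81% of all genes on the lower side. Plvap, which forms the diaphragms of endothelial pores and vesicles, measured 6.72, 6.90 and 6.54 in ErbB4-/- replicates 1 to 3, against 7.13, 7.05 and 7.20 in controls. Its difference was -0.41 with a standard error of 0.10, and without any 1 array it lay between -0.50 and -0.32, each time at an unadjusted p under 0.05 (limma). Here the lowest value was again that of ErbB4-/- replicate 3, but replicate 1 lay under replicate 2. Clec14a, a lectin-domain glycoprotein of growing vessels, measured 6.83, 6.81 and 6.12 in ErbB4-/- replicates, against 7.04, 7.38 and 7.30 in controls. The difference was -0.65 with a standard error of 0.22, and its unadjusted p was under 0.05 in 4 of the 6 fits without 1 array. It was -0.42 without ErbB4-/- replicate 3. Neither gene passed (limma, adjusted p = 0.760).

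Receptors that carry growth and survival signals into endothelium had values near control in ErbB4-/- replicate 1 and low ones in replicate 3. Kdr, the main receptor of VEGF-A, measured 8.91, 8.19 and 7.30 in ErbB4-/- replicates 1 to 3, against 8.83, 8.87 and 9.09 in controls. Tek, the angiopoietin receptor Tie2, measured 7.31, 6.70 and 5.95 in ErbB4-/- replicates, against 7.11, 7.11 and 7.29 in controls, and here replicate 1 was the highest of all 6 arrays. Flt4, the receptor of VEGF-C, measured 7.53, 7.13 and 6.71 in ErbB4-/- replicates, against 7.50, 7.58 and 7.94 in controls. Their differences were -0.80, -0.51 and -0.55, and in all of them replicates 2 and 3 lay below all controls. Flt1, a VEGF receptor that also acts as a decoy, differed by -0.41 and Eng, a coreceptor of the BMP and TGF-beta families, by -0.83. The orphan receptor gene Tie1, a partner of Tek, differed by -0.08, and Ramp2, a subunit of the adrenomedullin receptor, by -0.02. All these receptor differences depended on ErbB4-/- replicate 3. Without it they were -0.38 for Kdr, -0.16 for Tek, -0.34 for Flt4, -0.24 for Flt1 and -0.44 for Eng, and Tie1 and Ramp2 changed sign, to 0.02 each.

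Genes of junctions and of the cell surface split by the size of their difference. Cdh5, VE-cadherin of endothelial junctions, measured 9.25, 8.57 and 7.36 in ErbB4-/- replicates 1 to 3, against 8.93, 9.45 and 9.56 in controls. It was lower by 0.92 log2 units (difference -0.92, SE 0.50). Ptprb, the phosphatase VE-PTP that acts on Tek and VE-cadherin, measured 9.60, 8.86 and 8.14 in ErbB4-/- replicates, against 9.38, 9.70 and 9.91 in controls. Adgrl4, an adhesion receptor of the latrophilin family, measured 7.76, 6.69 and 6.00 in ErbB4-/- replicates, against 7.37, 7.77 and 7.99 in controls. In these 3 genes replicate 1 lay inside the control range, and without replicate 3 their differences were -0.40 for Cdh5, -0.43 for Ptprb and -0.48 for Adgrl4. Pecam1, the junction protein CD31, differed by -0.37 ± 0.15 (SE), with ErbB4-/- values of 7.39, 6.99 and 6.89, against 7.40, 7.39 and 7.59 in controls. Emcn, the sialomucin endomucin, differed by -0.67, the matrix glycoprotein gene Mmrn2 by -0.53, the guidance receptor gene Robo4 by -0.49, and Icam2, a leukocyte ligand of resting endothelium, by -0.23. Esam, a junction adhesion molecule, differed by -0.16. Without ErbB4-/- replicate 3 the differences were -0.37 for Emcn, -0.20 for Robo4 and -0.02 for Esam. Vwf, the clotting carrier von Willebrand factor, Egfl7, a secreted vascular protein, and Cldn5, the tight junction claudin, had differences of 0.05, 0.01 and 0.03. Those 3 were the general genes with values above 0, and Vwf, typical of larger vessels, spanned only 5.77 to 5.79 in ErbB4-/- liver and 5.68 to 5.77 in control. Adjusted p lay between 0.760 and 0.958 over the 21 genes (limma).

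Sinusoidal and general genes were then set against each other within each array. The sinusoidal mean minus the general mean was 1.15, 0.84 and 0.65 in ErbB4-/- replicates 1 to 3, against 1.17, 1.44 and 1.49 in control replicates 1 to 3. The groups did not overlap, with ErbB4-/- replicate 1 close to control replicate 1. Means were 0.88 ± 0.25 in ErbB4-/- and 1.37 ± 0.17 in control liver (SD, n = 3 each), which is a difference of -0.49. This is a description with no test. It was -0.37 without ErbB4-/- replicate 3. It was -0.26 over genes whose mean log2 value was at least 7, a limit chosen after the values were seen. At that limit the median difference was -1.02 over 8 sinusoidal and -0.80 over 8 general genes. The 13 general genes under it had a median of -0.23, so the comparison of the groups also follows signal level. That limit is itself touched by the difference, since Lyve1, Gpr182, Mmrn2 and Adgrl4 reached it through the controls, with ErbB4-/- means of 6.32, 6.76, 6.78 and 6.82.

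**Figure D3:**
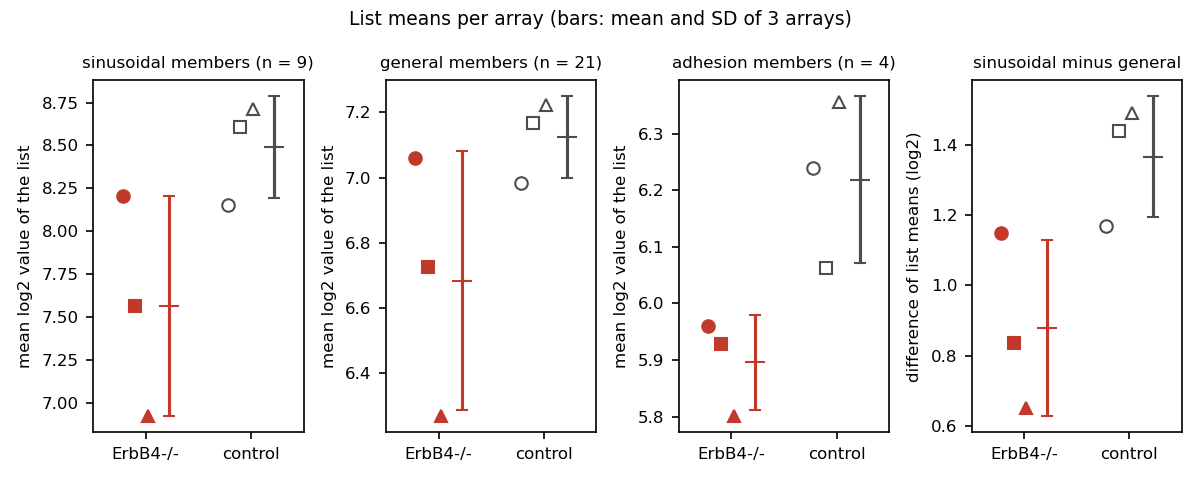
The mean log2 value of the sinusoidal, general and adhesion genes on each array, and in the right panel the sinusoidal minus the general mean, with ErbB4-/- left of control and bars for the mean and SD of 3 arrays. ErbB4-/- replicate 3 has the lowest value in every panel, at 6.92 for the sinusoidal and 6.27 for the general genes.

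The 4 adhesion molecules had a median difference of -0.21, with 3 below 0 and 1 above. Their mean per array was 5.96, 5.93 and 5.80 in ErbB4-/- replicates 1 to 3, against 6.24, 6.06 and 6.36 in control replicates 1 to 3, which do not overlap. Vcam1, which binds the integrin VLA-4 of leukocytes and is also made by macrophages of the liver, measured 7.04, 7.14 and 6.90 in ErbB4-/- replicates 1 to 3, against 8.16, 7.64 and 8.33 in controls. The ErbB4-/- arrays lay close together and below all controls. The difference was -1.01 with a standard error of 0.19, which is 2.02-fold lower (limma, adjusted p = 0.760). Without any 1 array it lay between -1.22 and -0.87, each time at an unadjusted p under 0.05 (limma). Lyve1 and Plvap also stayed under this p in each such fit, and no other gene of the 34 did. The share of all genes that did so was not counted, and these fits share most of their arrays. Icam1, the ligand of the leukocyte integrin LFA-1, measured 6.69, 6.47 and 6.45 in ErbB4-/- replicates, against 6.87, 6.69 and 6.80 in controls, with replicate 1 equal to control replicate 2. Its difference was -0.25 with a standard error of 0.09.

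The selectins, which slow leukocytes on activated endothelium, had low signal. Sele measured 4.91, 4.90 and 4.78 in ErbB4-/- replicates 1 to 3, against exactly 4.72 in each control. All ErbB4-/- arrays thus lay above the controls, by 0.14 with a standard error of 0.06 (limma, adjusted p = 0.760). This was 1 of 34 genes with no overlap and ErbB4-/- higher, which is 2.94%, beside 4.52% of all genes. Selp, the P-selectin gene that platelets also use, measured 5.20, 5.20 and 5.07 in ErbB4-/- replicates, against 5.20, 5.20 and 5.57 in controls. Its difference of -0.17 came from control replicate 3 and ErbB4-/- replicate 3. Sele and Selp lie on chromosome 1, as does Erbb4.

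Leukocyte ligands of these molecules were lower as well. Of 8 such genes 8 had a difference below 0, and in 4 the groups did not overlap, which is 50.0%, beside 3.81% of all genes. Selplg, the ligand of the selectins, differed by -1.30 and Itgb2 and Itgal, the subunits of LFA-1, by -0.76 and -0.43. Itgam, a myeloid integrin subunit, differed by -0.93. Of 6 cytokines that can induce adhesion molecules, 4 were below 0. Il1b measured 7.84, 7.76 and 7.06 in ErbB4-/- replicates, against 8.80, 8.61 and 9.38 in controls, and Il1a 7.19, 6.52 and 5.54, against 7.35, 7.34 and 7.96 in controls. Both interleukin genes lay below all controls on all ErbB4-/- arrays, with Il1a at a difference of -1.13, or -0.69 without ErbB4-/- replicate 3. They are 2 of the 6 cytokine genes or 33.3%, beside 3.81% of all genes without overlap and lower. Tnf, at a low signal, differed by 0.09. None of these genes passed (limma, adjusted p between 0.760 and 0.827), and their part in the values of Vcam1 or Icam1 was not tested.

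Further genes of the endothelium, listed apart from the 34, were less uniform. Of 15 other sinusoidal genes 13 were below 0, with a median of -0.23. Fcgr2b, the Fc receptor that clears immune complexes, measured 9.59, 8.51 and 7.96 in ErbB4-/- replicates 1 to 3, against 9.58, 9.94 and 10.22 in controls. The gene of clotting factor VIII, F8, measured 8.76, 7.89 and 7.49 in ErbB4-/- replicates, against 8.57, 9.17 and 9.38 in controls. Mrc1, the mannose receptor, which macrophages also carry, measured 9.0, 8.52 and 7.94 in ErbB4-/- replicates, against 9.16, 9.09 and 9.43 in controls. ErbB4-/- replicate 3 was lowest in all 3, and replicate 1 lay within the control range in Fcgr2b and F8 and below it in Mrc1. Their unadjusted p was under 0.05, as in 3 of the 15 genes or 20.0%, beside 2.94% of all genes on the lower side. Mrc1 and Tfec, a transcription factor gene at -0.69, or -0.34 without ErbB4-/- replicate 3, were the 2 without overlap. They are 13.3% of the list, beside 3.81% of all genes. Maf, another transcription factor gene, differed by -0.17.

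Regulators of vessels differed little. Of 20 vascular receptors and ligands 14 were below 0, with a median of -0.11. Only 16 of the 20 lay at or above the median level, and Notch4 held 5.48 on all 6 arrays, so part of this list could hardly differ. With 1 gene of 20 at an unadjusted p under 0.05, beside 2.94% of all genes on the lower side, the count was near the share of all genes. That gene was Calcrl, the receptor that pairs with Ramp2 and binds adrenomedullin, at 7.93, 7.33 and 6.94 in ErbB4-/- replicates 1 to 3, against 8.23, 8.17 and 8.31 in controls. Here too ErbB4-/- arrays lay below all controls, with a difference of -0.84. Edn1, the vasoconstrictor endothelin, differed by -0.34 at a signal under the median level, and the BMP receptor genes Acvrl1 and Bmpr2 by -0.14 and -0.17. Without ErbB4-/- replicate 3, Edn1 was at -0.20 and Bmpr2 at -0.09. Of 12 transcription factors of the endothelium 9 were below 0, with a median of -0.04. Fli1, an ETS factor shared with blood cells, measured 7.54, 7.12 and 6.93 in ErbB4-/- replicates, against 7.69, 7.73 and 8.11 in controls. It was the 1 gene of the 12 with an unadjusted p under 0.05, which is 8.33%, a count of 1 beside 2.94% of all genes. Erg, the ETS factor most typical of endothelium, differed by -0.24 with a standard error of 0.10. Of 14 genes of large vessels and ordinary capillaries 10 were below 0, with a median of -0.06. Cav1, which builds caveolae, was higher without overlap, at 6.07, 5.96 and 6.22 in ErbB4-/- replicates, against 5.38, 5.72 and 5.89 in controls. Podxl, a sialomucin, and Esm1, a proteoglycan of growing vessels, were lower without overlap, with differences of -0.32 and -0.44. Esm1 lay under the median level, where signal can be background, and was at -0.29 without ErbB4-/- replicate 3. The 2 lower and 1 higher genes without overlap are 14.3% and 7.14% of the list, beside 3.81% and 4.52% of all genes. Efnb2, an arterial ephrin, differed by -0.40, or -0.26 without ErbB4-/- replicate 3. None of the genes in these lists passed (limma, adjusted p of at least 0.760).

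**Figure D4:**
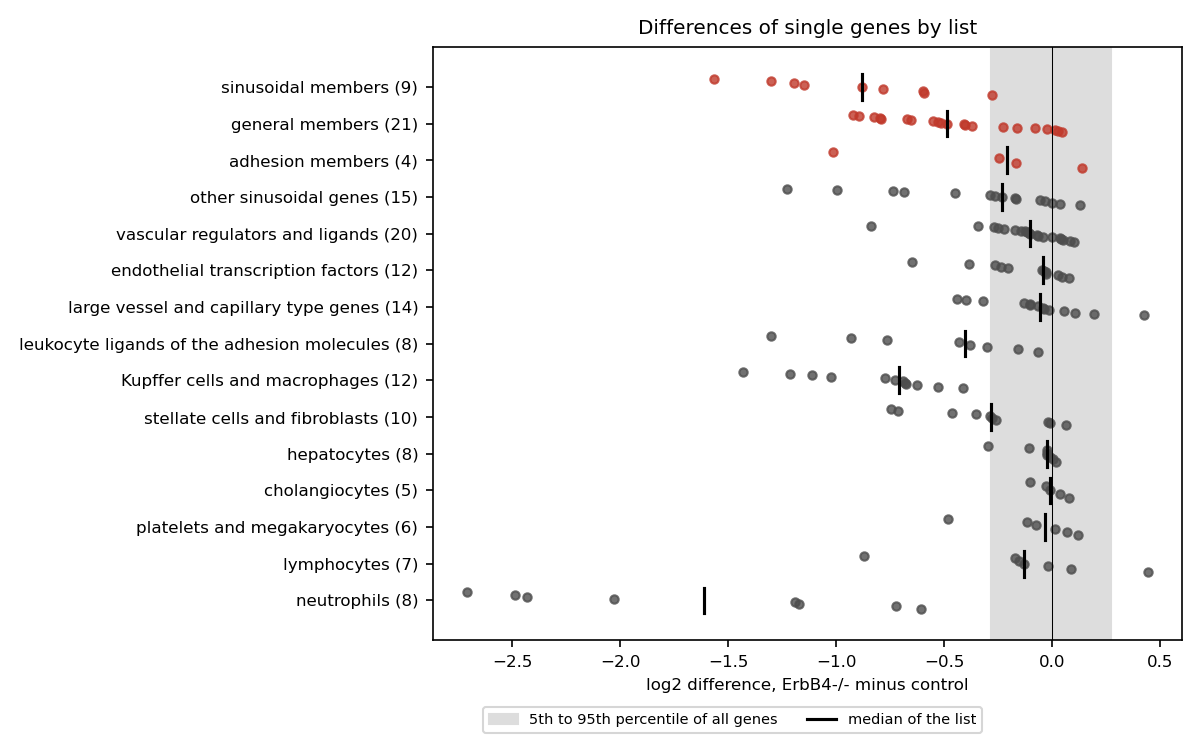
Each point is a gene, placed by its log2 difference between ErbB4-/- and control, with the number of genes measured after each list name, a black line at the list's median and a grey band from the 5th to the 95th percentile of all genes. The median lies at -0.88 for the sinusoidal and -0.49 for the general genes, and at -0.03 for the hepatocyte markers.

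Markers of macrophages, stellate cells and neutrophils also had lower values in ErbB4-/- liver, those of other cells were mixed or near 0, and none of those named here passed (limma, adjusted p of at least 0.664). The mean of 12 markers of Kupffer cells and macrophages was 8.33, 7.98 and 7.48 in ErbB4-/- replicates 1 to 3, against 8.62, 8.71 and 8.93 in controls, with no overlap and 12 of 12 below 0. In 10 of these 12 the groups did not overlap, which is 83.3%, beside 33.3% of the sinusoidal genes and 3.81% of all genes. Differences of the 12 ran from -1.43 for Marco to -0.41 for Clec4f. Clec4f, found on Kupffer cells alone in mouse liver, measured 9.46, 9.14 and 8.78 in ErbB4-/- replicates, against 9.48, 9.55 and 9.59 in controls. Stellate cells and fibroblasts, with 9 of 10 markers below 0, had means of 7.93, 7.63 and 7.35 in ErbB4-/- replicates, against 7.79, 8.0 and 8.05 in controls. ErbB4-/- replicate 3 was lowest in both lists, as in the endothelial ones. Neutrophil markers followed another order, with means of 4.68, 4.70 and 4.93 in ErbB4-/- replicates, against 7.18, 5.30 and 6.83 in controls. Hepatocyte markers had means of 13.29, 13.32 and 13.26 in ErbB4-/- replicates, against 13.33, 13.30 and 13.40 in controls, which overlap. Signal this high can be compressed on arrays. Hnf4a, the hepatocyte marker of lowest signal, measured 10.68, 10.74 and 10.67 in ErbB4-/- replicates, against 11.02, 10.79 and 11.17 in controls. It was lower without overlap, at -0.30, as 1 of 8 markers or 12.5%, beside 3.81% of all genes. Lymphocyte markers were mixed, with 5 of 7 below 0 and a median difference of -0.13. Ptprc, the CD45 gene of all leukocytes, was lower without overlap, at -0.87, and the natural killer cell gene Ncr1 was higher without overlap, at 0.44 and a signal under the median level. Each is 1 of the 7 or 14.3%, beside 3.81% of all genes on the lower and 4.52% on the higher side. Platelet markers had a median difference of -0.03 over 6 genes. Of 3 genes of lymphatic vessels, Prox1, which hepatocytes share, differed by 0.02, Pdpn by -0.11 and Reln, which stellate cells share, by -0.29 without overlap. Reln is 1 of 3 or 33.3%, a count of 1 beside 3.81% of all genes. The part of these cells, of the early response genes and of the arrays that stand apart in the endothelial values was not tested.

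**Figure D5:**
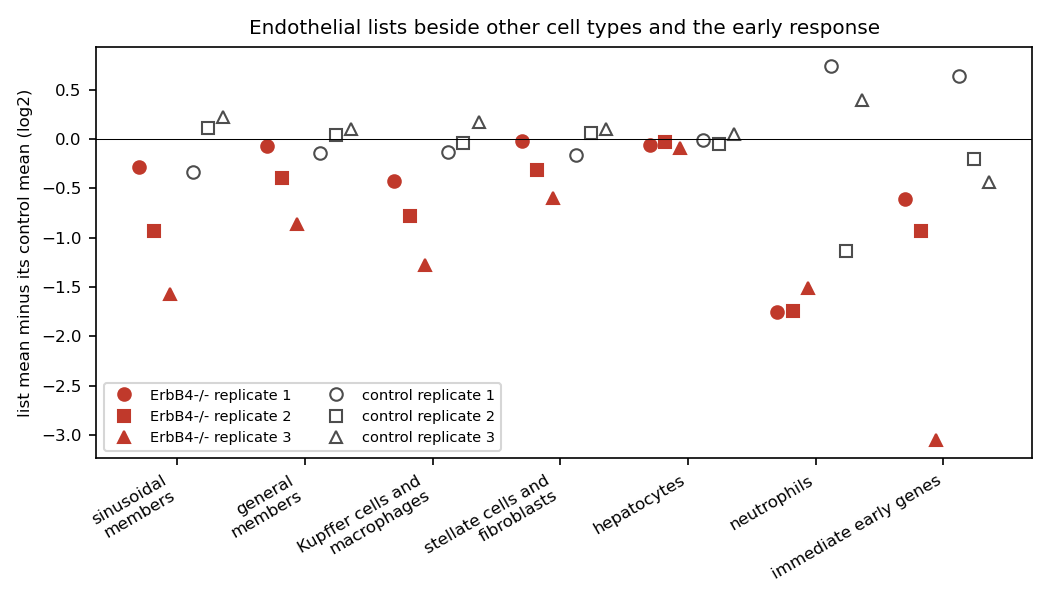
The mean of each list on each array minus the mean of its 3 control arrays, on the log2 scale, with filled red symbols for ErbB4-/- left of open symbols for control. The sinusoidal, general, macrophage and stellate lists have their lowest value in ErbB4-/- replicate 3, as do the immediate early genes, while hepatocyte markers stay near 0 and neutrophil markers are low in all ErbB4-/- arrays.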

How the data were processed

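The deposited values are log2 intensities of 41345 probe sets on 6 arrays, as the authors processed them. Their normalization is not given in the sources used, and the log base was read from the range of 1.74 to 14.4. Per the labels' protocols, Trizol RNA was made into labelled cDNA by Affymetrix WT kits. Array medians lay between 4.83 and 4.86. Correlations between arrays were 0.975 to 0.986, and no depth applies; the number of arrays limits precision, with a median standard error of 0.10. Genes were named from 23521 probe sets with 1 symbol in the platform annotation, the highest mean standing for a gene, which gave 22180 genes. No filter was applied. ErbB4-/- was tested against control with limma 3.58.1 in R 4.3.3, two-sided, with Benjamini-Hochberg adjustment over all genes and a threshold of 0.05, and checked on simulated data. Permuting 3 and 3 arrays allows no two-sided p below 0.10, so no such test is given. The members, lists and alternatives were chosen with earlier results of these data known, so lists are described by counts and medians. Members are given with every array for groups without overlap, an unadjusted p under 0.05 or the ends of a list, and from other lists up to 4 genes of smallest p and defining markers. Per-array values of further members, and the genes Tfec, Ncr1 and Reln, were added after their values were seen. Alternatives covered normalization, a filter at the median level, probe sets, the variance prior, array weights, replicate block, week, left-out arrays and group membership. Same-numbered replicates are not paired in the labels. Figures used matplotlib 3.10.9 in Python 3.11.15.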

Additional observations from a re-analysis of the deposited data

How the results depend on the processing

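No gene of the 34 passed under any alternative (limma, lowest adjusted p 0.338), and 0 passed at an adjusted p under 0.1, while 9 had an unadjusted p under 0.05, all lower. That count was 3 to 23 when 1 array was left out. It was 4 without control replicate 1 and ErbB4-/- replicate 3 together, and 0 in the fit that holds the week. The share of all genes under this p was not computed in these fits. The count included 1 higher gene without ErbB4-/- replicate 3 (Sele), without both those arrays and with array weights. The 1 gene called over all genes was lost (0 called) with any array left out, without both those arrays, with the replicate block and in the week fit. The replicate block, with 6 of the 34 at an unadjusted p under 0.05, changed no direction and no other call. Same-numbered arrays had correlations of -0.10, 0.03 and -0.05 in their deviations from the group means, which cannot tell whether they are paired. In the week fit, which assumes 1 slope for both groups, the sinusoidal median was -0.19 and the general median 0.033. Differences of 10 genes turned above 0 there, with 0.091 for Stab2, 0.21 for Kdr, 0.074 for Flt1, 0.033 for Cdh5, 0.38 for Tek, 0.19 for Tie1, 0.079 for Ramp2, 0.15 for Esam, 0.21 for Robo4 and 0.0038 for Mmrn2. Other changes of sign were in genes near 0, which without 1 array ranged from -0.15 to 0.024 for Tie1, -0.051 to 0.017 for Ramp2, -0.011 to 0.045 for Egfl7 and -0.060 to 0.089 for Cldn5. They were Egfl7 at -0.011 and Cldn5 at -0.060 without ErbB4-/- replicate 1, Egfl7 at -0.011 without control replicate 2, Tie1 at 0.024 and Ramp2 at 0.017 without ErbB4-/- replicate 3, and Tie1 at 0.059 and Ramp2 at 0.017 without both arrays named above. Over genes of a level of at least 7, added after seeing the data, the general median was -0.80 and the sinusoidal minus general difference -0.26. This choice is not independent of the difference, since Lyve1, Gpr182, Mmrn2 and Adgrl4 reach the level only through the controls. The adhesion median was -0.63 over the 2 genes above the median level. The sinusoidal median stayed below 0 under all alternatives, as did the adhesion median. Causes of these changes were not tested, and weeks and genotype do not overlap in the labels.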
